A study of Mus musculus with 14 samples.

Results

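Cardiac calcium handling and ion channel genes, some of which also serve cells that do not contract, were followed in dissected mouse epicardium and subepicardium. These are the outer layer of the heart and the tissue just under it. The set held 37 genes named one by one: the genes of calcium release and uptake by the sarcoplasmic reticulum, of calcium entry and exchange across the cell membrane, of potassium channels, of sodium channel partners and the sodium pump, a calcium-dependent kinase, and the genes of store-operated calcium entry. Of these, 36 were listed in a table of 15894 genes, and Scn4b was not listed. The hearts were fetal, untreated and carried Tbx18Cre, a Cre recombinase driven by the Tbx18 locus that is active in the epicardium and in some other heart cells. All groups shared this allele by their labels, although the study elsewhere calls the hearts wild type, and the mice were kept on a mixed strain background. Each library was made from 2 pooled epicardia of one side, ventral or dorsal, and the fetuses came from at least 3 litters. There were 3 female ventral and 3 female dorsal libraries (pools 1 to 3), and 4 male ventral and 3 male dorsal libraries (pools 4 to 7). A further male library of pool 7 carried one label for the dorsal side and another for the ventral side, so it entered no comparison. Sex and the numbered pools went together, so that a difference between the sexes and a difference between the 2 numbered series cannot be told apart.

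In a heart muscle cell, a small entry of calcium through the L-type channel opens the ryanodine receptor of the sarcoplasmic reticulum, the released calcium drives contraction, and the calcium pump SERCA2 returns it to the store, where calsequestrin holds it. The sodium-calcium exchanger removes the calcium that entered, potassium channels end the action potential, and the sodium pump restores the gradients. Cells that do not contract, among them fibroblasts and epicardial cells, mostly release calcium through inositol trisphosphate receptors and refill their stores by store-operated entry, in which STIM1 senses the store and ORAI1 forms the pore. The ventral and dorsal sides of the heart were compared within each sex and over both sexes, and the sexes were compared with each other. Values are counts scaled to the effective library size (normalized CPM). Changes are log2 ratios of ventral over dorsal on the log2(normalized CPM + 1) scale with their standard errors (SE), which understates the change of genes at low levels. A gene was called when its adjusted p-value was under 0.05 by the limma test over all genes. The 2 epicardia of a pool were not measured apart, and nothing in the labels says that ventral and dorsal tissue of one number came from the same hearts. The p-values measure the spread between these pools.

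The libraries held 13918995 to 25221314 reads on the listed genes, and 3 reads corresponded to 0.135 to 0.253 normalized CPM. Epicardial markers were present in every library, with Wt1 at 26.4 to 215.6 normalized CPM, and so were markers of ventricular heart muscle, with Tnnt2 at 4305 to 11134 normalized CPM. The skeletal muscle regulators Myod1 and Myog were not listed. Female dorsal replicate 1 stood apart. Its 6 atrial markers summed to 12490 normalized CPM against 495.1 and 1996 in the other female dorsal libraries and at most 1612 in the male dorsal and all ventral libraries. Its sinus node markers Shox2 (121 normalized CPM) and Hcn4 (12.5) were also above those of the other libraries, in which Shox2 reached 20.7 and Hcn4 2.63, while the 4 listed conduction markers together (217.6) were within the range of the female libraries (53.4 to 309.2). Results that rest on this library are given with and without it where a fit without it could be made. Other cell types moved with the region too. In females the 10 epicardial markers summed to 1780 to 2861 normalized CPM ventrally and 345 to 657.8 dorsally, with 9 of 10 called higher ventrally, and 6 of 8 fibroblast and 5 of 6 macrophage markers were called higher ventrally. The 10 ventricular muscle markers summed to 24940 to 35940 normalized CPM in the female ventral and 33890 to 47650 in the female dorsal libraries, with 9 of 10 changes below 0 (median −0.35), 1 called higher ventrally (Ttn, 1.40) and 0 called higher dorsally. In males the same sums were 18570 to 37110 ventrally and 37760 to 49500 dorsally. Over 13 libraries, log2 levels of the members were correlated with the mean log2 level of the 10 muscle markers. Pearson's r ran from −0.60 (Stim1) and −0.50 (Kcnd3) to 0.88 (Pln) and 0.94 (Fxyd1). Beyond centring each library on its muscle markers, the part of these cell type shifts in the results below was not tested. In whole tissue, fewer cells of a type and less RNA per cell cannot be told apart.

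The members spanned a wide range of levels. Over the 13 libraries of settled region, mean levels ran from 1.95 normalized CPM for Kcnd3 to 1266 for Pln, with a median of 39.1, and 11 of 36 members were at 100 normalized CPM or more. For a rough comparison between genes, levels were divided by the length of the longest protein-coding transcript of each gene. That form need not be the one expressed, so the order depends on this choice. Per kilobase, Fxyd1, a regulator of the sodium pump, was at 713 ± 142 (SD, n = 13) normalized CPM per kb. It was followed by the SERCA2 inhibitor Pln at 542, the cardiac calsequestrin Casq2 at 379, SERCA2 itself (Atp2a2) at 182 and the pump subunit Atp1b1 at 179. Channel genes were lower, from Kcne1 at 50.3 and Kcnq1 at 12.0 down to Cacna1g at 0.709 and Kcnd3 at 0.272 normalized CPM per kb. Store and pump genes thus led this order, while the release channel Ryr2 was at 5.93 normalized CPM per kb.

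Between the ventral and dorsal sides of female hearts, 14 of the 36 members were called. They were split: 6 members (16.7%) were higher ventrally, where 14.5% of all 14411 genes tested were called, and 8 members (22.2%) were higher dorsally, where 13.3% of all genes were called. The median change over the members was −0.02, against 0.01 over all genes, with 18 changes above and 18 below 0. With trends on GC content and length removed the median was −0.36, against −0.05 over all genes, with 12 above and 24 below 0, and without female dorsal replicate 1 it was 0.13. Members of the release apparatus were on both sides of this split. The ventrally higher members were Stim1, Kcnd3, Itpr1, Ryr2, Jph2 and Trpm7, and the dorsally higher members were Fgf13, Kcnj5, Casq2, Fkbp1b, Camk2d, Asph, Atp1b1 and Orai1. In each of these 14 the 3 ventral and 3 dorsal values did not overlap. That count was 6 members ventrally (23.2% of all genes) and 8 dorsally (21.6% of all genes). Of the 14, 7 stayed called under all alternatives that tested them (Stim1, Kcnd3, Itpr1, Fgf13, Kcnj5, Casq2 and Camk2d). Kcnd3 was tested in 13 alternatives, against 17 for the others of these 7. It did not pass the filter without any one of the female ventral libraries, so its call could not be lost there. After centring on the muscle markers, which moved the median change of all genes to 0.20, 4 members were ventrally and 5 dorsally higher, and the calls over all genes became 1448 ventrally against 505 dorsally in place of 2089 and 1918.

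**Figure D1:**
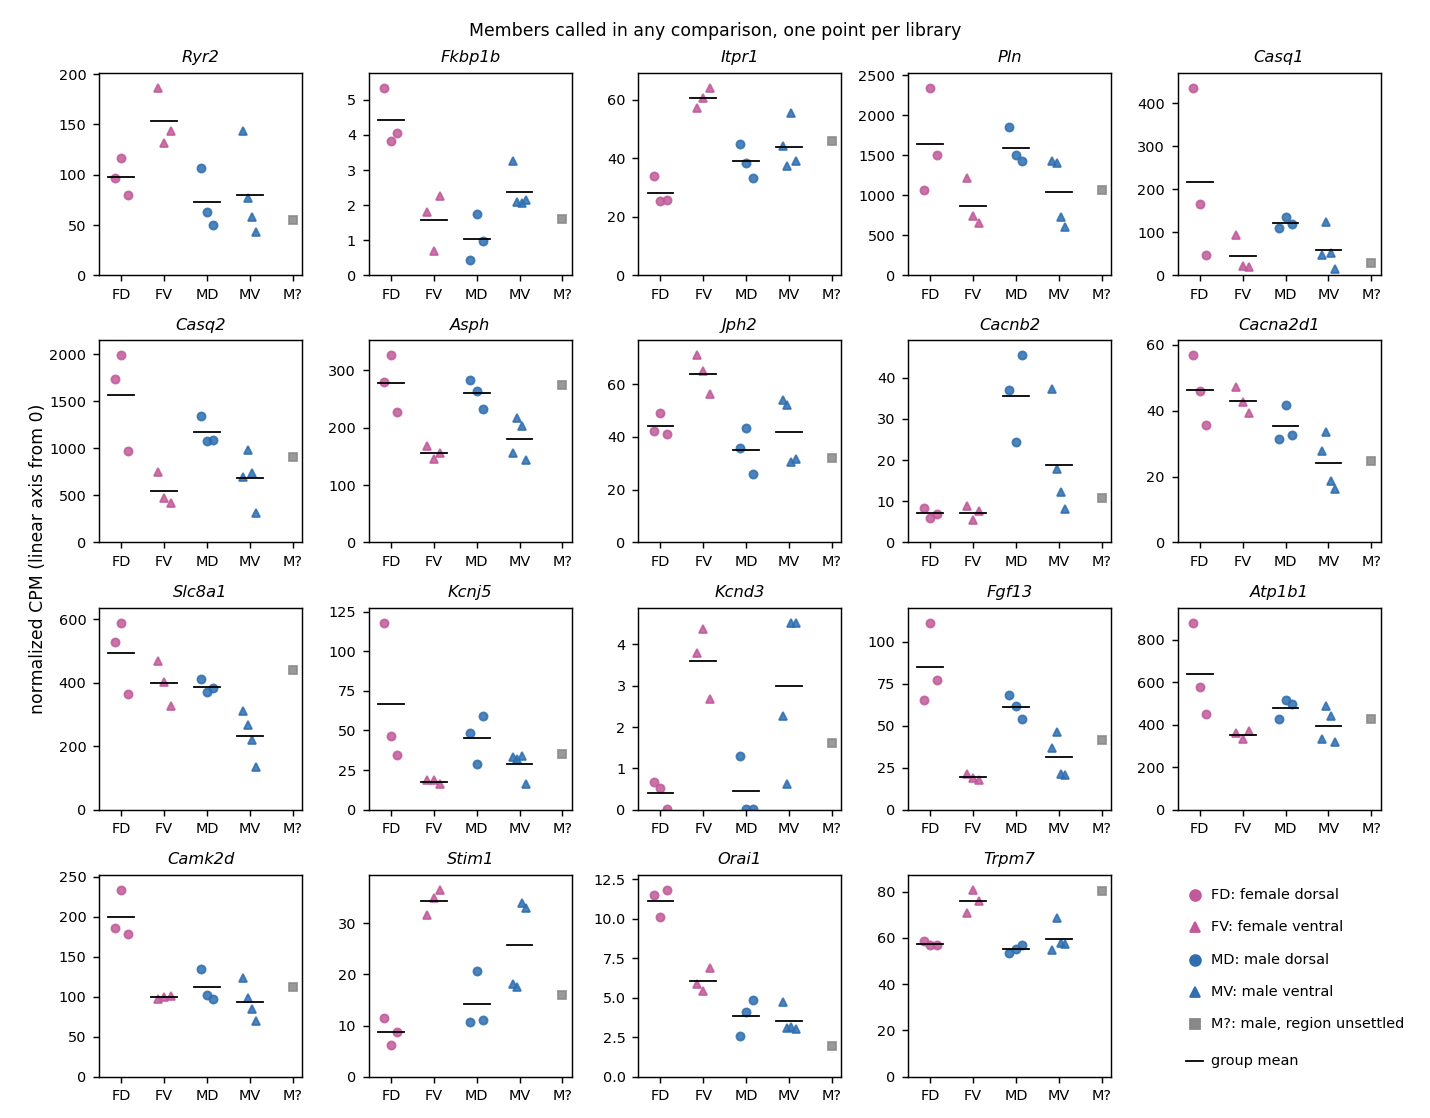
Normalized CPM (vertical axes, linear from 0) of the 19 members called in any comparison, with one point per library, the group mean as a line and the library of unsettled region in the last column. Female ventral and female dorsal points do not overlap for the 14 members called in females, while the male groups of most of these members overlap.

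The 3 members shown here were called under all alternatives that tested them both in females and over both sexes and have a single RefSeq start: Casq2, which was higher dorsally, and Stim1 and Kcnd3, which were higher ventrally. The 250 bases before their starts are shown because these members kept their calls in those fits (RefSeq, build GRCm38.p6). Kcnd3 was tested in fewer of the female fits, as it passed the filter there only through the ventral group. Over both sexes it also passed the filter only through the ventral libraries. Capitals mark E-boxes, CANNTG, a motif that reads the same on both strands.
Casq2, chr3:102086165-102086414, plus strand: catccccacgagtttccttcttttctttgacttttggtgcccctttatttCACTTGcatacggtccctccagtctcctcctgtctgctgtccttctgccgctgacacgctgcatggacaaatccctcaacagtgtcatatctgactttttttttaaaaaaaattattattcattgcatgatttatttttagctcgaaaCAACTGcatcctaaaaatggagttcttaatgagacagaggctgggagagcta
Stim1, chr7:102267569-102267818, plus strand: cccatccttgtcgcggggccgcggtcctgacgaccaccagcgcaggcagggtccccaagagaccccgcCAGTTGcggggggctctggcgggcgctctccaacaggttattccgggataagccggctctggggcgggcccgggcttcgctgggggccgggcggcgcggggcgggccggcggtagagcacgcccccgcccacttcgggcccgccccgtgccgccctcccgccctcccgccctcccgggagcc
Kcnd3, chr3:105451640-105451889, plus strand: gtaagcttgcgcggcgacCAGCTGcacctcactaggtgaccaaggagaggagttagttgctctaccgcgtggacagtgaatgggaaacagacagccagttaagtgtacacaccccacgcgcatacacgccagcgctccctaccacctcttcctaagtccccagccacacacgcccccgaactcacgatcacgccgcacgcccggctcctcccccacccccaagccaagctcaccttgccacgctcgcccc
In build GRCm38 the 7 protein-coding genes that kept their calls in females lie at separate loci: Stim1 at chr7:102267806-102437319, Kcnd3 at chr3:105452330-105674002, Itpr1 at chr6:108213096-108551109, Fgf13 at chrX:59062145-59568071, Kcnj5 at chr9:32314707-32344350, Casq2 at chr3:102086415-102146514 and Camk2d at chr3:126596302-126846326. The Casq2 sequence was 41.6% G and C, against 78.4% for Stim1 and 62.8% for Kcnd3. The median was 63.4% over the 38 starts found for 28 of the 37 members and 52.4% over all 32851 starts in the table. E-boxes occurred in 66.2% of all starts and in 63.2% of the member starts. The MEF2 motif CTANNNNTAG, searched on both strands, was in 3.2% of all starts and in 1 of the 38 member starts, a start of Fgf13. The M-CAT motif CATTCC, searched on both strands, was in 12.6% of all starts and in 2 of the 38 member starts. A match here describes the letters of the window and is not a binding site.

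Among the genes of calcium release and storage, Ryr2, Itpr1 and Jph2 were higher ventrally in females. Ryr2, the ryanodine receptor that releases calcium from the store, was at 186, 132 and 144 normalized CPM in the female ventral libraries and at 97.1, 117 and 80.0 in the female dorsal libraries, an increase of 0.65 ± 0.18 ventrally (adjusted p = 0.0256). This call depended on the processing. After trends on GC content and transcript length were removed the change was −0.03, and the call was lost without female dorsal replicates 1 or 3 or female ventral replicates 1 or 3 (adjusted p 0.0521 to 0.0824). Itpr1, an inositol trisphosphate receptor, was at 57.3, 60.7 and 64.0 normalized CPM ventrally and at 34.0, 25.2 and 25.6 dorsally, so that every ventral library was above every dorsal one. Its change was 1.08 ± 0.17 (adjusted p = 0.00219). Itpr2, another receptor of this family, changed by 0.13 ± 0.17 (adjusted p = 0.605). Jph2, which ties the store to the cell membrane, was at 70.9, 65.0 and 56.1 normalized CPM ventrally and at 42.4, 49.1 and 41.1 dorsally (0.52 ± 0.15, adjusted p = 0.0313). The Jph2 call was lost without female dorsal replicates 1 or 3 or female ventral replicates 1 or 2 (adjusted p 0.071 to 0.0942).

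Genes whose products hold calcium in the store or bind the release channel were higher dorsally or were not called. Casq2, the calcium-binding protein of the cardiac store, was at 753, 473 and 414 normalized CPM in the female ventral libraries and at 1738, 1989 and 971 in the female dorsal libraries, 2.86-fold higher dorsally by the group means. Its change was −1.50 ± 0.30 (adjusted p = 0.00627), and it was −1.39 without female dorsal replicate 1. Asph, whose locus encodes junctin, a partner of the ryanodine receptor, was at 167, 145 and 156 normalized CPM ventrally and at 279, 326 and 227 dorsally (−0.81 ± 0.16, adjusted p = 0.00553). The Asph counts do not separate junctin from the aspartyl hydroxylase made from the same locus. Fkbp1b, which encodes calstabin 2 and stabilizes the closed release channel, was low, at 1.80, 0.687 and 2.26 normalized CPM ventrally (34, 9 and 38 reads) and at 5.33, 3.84 and 4.07 dorsally (115, 70 and 81 reads). It fell by 1.11 on the log2 scale ventrally (SE 0.35, adjusted p = 0.0396), and the call was lost without any one of female dorsal replicates 1, 2 or 3 or female ventral replicates 1 or 2 (adjusted p 0.0558 to 0.126). Trdn, which encodes triadin and anchors calsequestrin to the channel, was at 393, 297 and 370 normalized CPM ventrally and at 390, 340 and 304 dorsally, and these groups overlapped (0.03 ± 0.16, adjusted p = 0.897). Hrc, a calcium-binding protein of the store, changed by 0.38 ± 0.23 (adjusted p = 0.248).

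Casq1, the calsequestrin best known from skeletal muscle, had a larger relative spread within the female dorsal group than the members above. It was at 435, 166 and 47.5 normalized CPM dorsally and at 94.3, 20.6 and 19.4 ventrally, and the groups overlapped. Its change was −2.13 ± 0.76 (adjusted p = 0.0612), and −1.37 without female dorsal replicate 1 (adjusted p = 0.176). It was called with the replicate block (adjusted p = 0.000303). The highest of these values, 435, was in the library with the high atrial markers. The skeletal muscle markers listed (3 of 6) summed to 10.5 to 18.9 normalized CPM in the female dorsal and 11.5 to 25.1 in the female ventral libraries. Uptake showed no call in females. Atp2a2, which encodes SERCA2, was at 1041, 941 and 890 normalized CPM ventrally and at 994, 980 and 766 dorsally (0.07 ± 0.17, adjusted p = 0.779). Pln, its inhibitor phospholamban, was at 1216, 740 and 659 normalized CPM ventrally and at 1064, 2336 and 1503 dorsally (−0.88 ± 0.31, adjusted p = 0.0609). It was called without female dorsal replicate 1 (−1.16, adjusted p = 0.0244). Of the 60-base stretches of the Pln transcripts, 54.7% also occur in Cep85l or Gm47644, so the reads of these genes may not be fully separated.

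Of the 6 members of calcium entry and exchange, 0 were called by limma in females, and 4 of 6 changes were above 0. Cacna1c, the pore of the L-type channel, was at 60.6, 34.9 and 40.8 normalized CPM ventrally and at 32.1, 35.9 and 34.1 dorsally (0.37 ± 0.21, adjusted p = 0.211). Its partners Cacnb2 and Cacna2d1 changed by 0.02 ± 0.29 and −0.08 ± 0.19. The sodium-calcium exchanger Slc8a1 changed by −0.29 ± 0.21 (adjusted p = 0.331). The T-type channel gene Cacna1g was at 5.35, 7.92 and 4.78 normalized CPM ventrally and at 12.0, 2.70 and 0.973 dorsally. Its highest female value was again in female dorsal replicate 1. Over all 3 dorsal libraries its change was 0.60 ± 0.59, and without that library it was 1.35 and called (adjusted p = 0.0448). Cacna1h, another T-type channel, changed by 0.26 ± 0.28.

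Of the 10 potassium channel members, 1 was called in each direction in females. Kcnd3, which encodes the Kv4.3 subunit of the transient outward current, was barely detected dorsally. It had 14, 9 and 0 reads in the female dorsal libraries (0.670, 0.517 and 0.025 normalized CPM) and 72, 60 and 45 reads in the female ventral libraries (3.78, 4.37 and 2.67 normalized CPM). The change was 1.73 ± 0.34 (adjusted p = 0.006), and it was 3.22 with a pseudocount of 0.1. Kcnd3 reached the filter of 1 normalized CPM in 3 libraries only through the ventral group, so it could be tested in females only because it was high there, and with 1 library removed it passed the filter in 3 of 6 cases. Kcnd2, the Kv4.2 subunit of the same current, changed by 0.81 ± 0.35 (adjusted p = 0.116), and their auxiliary subunit Kcnip2 by −0.21 ± 0.37. Kcnj5, a subunit of the acetylcholine-activated channel that is prominent in the atria, was at 18.5, 18.4 and 16.3 normalized CPM ventrally and at 118, 46.7 and 34.7 dorsally. Its change was −1.65 ± 0.37 (adjusted p = 0.0103). Without female dorsal replicate 1, where it was highest, the change was −1.14 (adjusted p = 0.00904). Kcna5, the Kv1.5 channel, was at 19.7, 12.5 and 3.61 normalized CPM ventrally and at 20.6, 34.7 and 17.4 dorsally (−1.16 ± 0.49, adjusted p = 0.107), and it was called with the replicate block (adjusted p = 0.0267). Kcne1, a subunit of the slow delayed rectifier, was at 146, 193 and 196 normalized CPM ventrally and at 82.7, 177 and 117 dorsally (0.56 ± 0.25, adjusted p = 0.121), and was also called with the block (adjusted p = 0.0326). Its pore subunit Kcnq1 changed by −0.23 ± 0.21. The changes of Kcnj2, Kcnj11 and Kcnh2, which encode an inward rectifier, an ATP-sensitive channel and the rapid delayed rectifier, ran from −0.33 to 0.60 without a call.

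All 4 listed members among the sodium channel partners and the sodium pump had changes below 0 in females, that of Fgf12 only through female dorsal replicate 1, and 2 were called. Fgf13, a fibroblast growth factor homologous factor that binds sodium channels inside the cell, was at 21.3, 19.1 and 17.7 normalized CPM ventrally and at 65.5, 111 and 77.1 dorsally. Each dorsal value was more than any ventral one, and the group means differed 4.37-fold. Its change of −2.04 ± 0.21 (adjusted p = 0.000416) had the smallest p-value of the members in females, and it was −2.21 without female dorsal replicate 1. Its relative Fgf12 was near the floor, at 0.088 to 2.42 normalized CPM ventrally and 0.299 and 0.474 in female dorsal replicates 2 and 3. In female dorsal replicate 1 it reached 53.9 (1166 reads), 18.4-fold above the next library of either sex. The change was −1.15 ± 1.21 (adjusted p = 0.511). Its direction rests on that library, since the other dorsal values were below 2 of the 3 ventral values (1.59 and 2.42), and without it Fgf12 did not pass the filter and has no fitted value. Atp1b1, the beta subunit of the sodium pump, was at 360, 332 and 368 normalized CPM ventrally and at 880, 577 and 451 dorsally (−0.79 ± 0.22, adjusted p = 0.0263). It was −0.53 without female dorsal replicate 1, and its call was lost without female dorsal replicate 2 or any one of the 3 female ventral libraries (adjusted p 0.0507 to 0.0968). Fxyd1, the pump regulator phospholemman, changed by −0.05 ± 0.18.

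**Figure D2:**
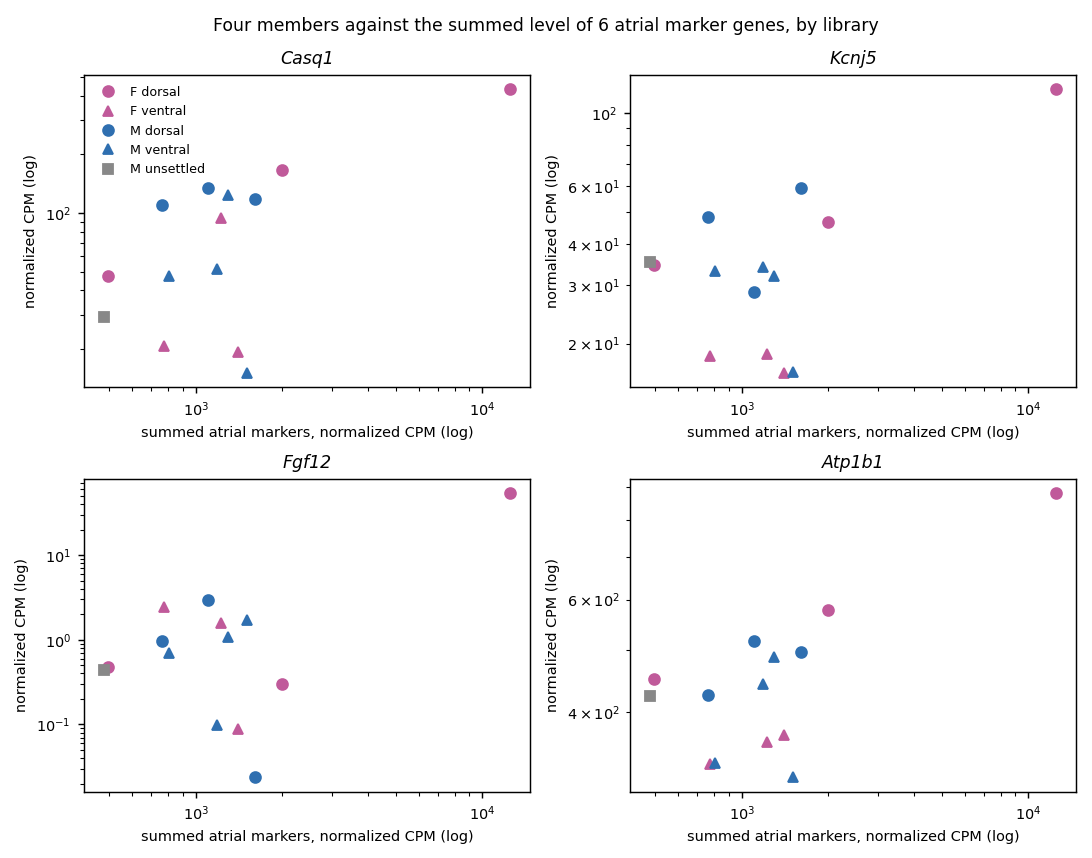
Normalized CPM of Casq1, Kcnj5, Fgf12 and Atp1b1 (vertical, log axis) against the summed normalized CPM of 6 atrial marker genes (horizontal, log axis), with one point per library. Female dorsal replicate 1, at 12490 on the horizontal axis, had the highest value of each of these 4 members.

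These 4 members were not alone in that library, in which 6 of the 36 members had their highest value of all 14 libraries, against 8 in female dorsal replicate 2 and 6 in female ventral replicate 1. The others in replicate 1 were Fkbp1b (5.33 normalized CPM) and Cacna2d1 (56.8). The 4 members plotted were chosen after their values were seen, and the part of atrial or sinus node tissue in their levels was not tested.

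The kinase was higher dorsally, and the genes of store-operated entry were split. Camk2d, the main cardiac isoform of the calcium and calmodulin-dependent kinase II, was at 97.6, 99.3 and 101 normalized CPM in the female ventral libraries and at 186, 234 and 178 dorsally, 2-fold higher dorsally by the means. Its change was −0.98 ± 0.14 (adjusted p = 0.00162). The partners of store-operated entry moved in opposite directions. Stim1, the sensor, was at 31.7, 34.9 and 36.6 normalized CPM ventrally and at 11.5, 6.13 and 8.81 dorsally, 3.91-fold higher ventrally (1.89 ± 0.24, adjusted p = 0.000995). Orai1, the pore, was at 5.87, 5.46 and 6.89 normalized CPM ventrally and at 11.5, 10.1 and 11.9 dorsally (−0.78 ± 0.25, adjusted p = 0.0423). Leaving out any of the 6 libraries ended the Orai1 call (adjusted p 0.0517 to 0.114), as did the replicate block (adjusted p = 0.055). Trpm7, a channel joined to a kinase that passes magnesium and calcium, was at 70.7, 80.9 and 76.1 normalized CPM ventrally and at 58.6, 56.8 and 57.1 dorsally (0.39 ± 0.13, adjusted p = 0.0495). Leaving out any of these libraries ended this call too (adjusted p 0.0538 to 0.152), and so did the block (adjusted p = 0.0784).

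In male hearts, 0 of the 36 members were called between the ventral and dorsal sides, and 0 of 14917 genes were (0% in each direction), by limma. With the replicate block 0 members were called in males, with 62 genes called ventrally and 14 dorsally. At an unadjusted p under 0.05, 2 members (5.56%) were higher ventrally, where 6.84% of all genes were, and 9 members (25%) were higher dorsally, where 7.12% of all genes were. The dorsal count depended on single libraries. It was 4 without male dorsal replicate 4 or 6, 5 without male ventral replicate 6 or 7, and 6 without male dorsal replicate 5. It was 10 without male ventral replicate 5 and 11 without male ventral replicate 4. In these fits the count over all genes ran from 602 to 1307. With GC content and length trends removed the member count was 12 (1390 over all genes). It was 8 with the replicate block (1109), 4 by edgeR (924) and 0 after centring (11). edgeR on the recovered reads also called 0 members in males. The male changes were below 0 in 25 members and above 0 in 11, with a median of −0.24 against 0.03 over all genes, and the 10 ventricular muscle markers had a median of −0.59. The member median was −0.07 without male ventral replicate 7 (12 above and 23 below 0) and −0.08 with the replicate block. These are not separate checks. Male ventral replicate 7 had no settled dorsal library of its number, so the block took it out of the regional change. After centring on the muscle markers the member median was 0.30, where that of all genes was 0.57. Male ventral replicate 7 had the lowest value of all 14 libraries in 15 of the 36 members, and it also had the lowest sum of muscle markers, 18570 normalized CPM. Whether this tissue composition set the member values was not tested. Non-overlapping groups were found for 1 member higher ventrally (Fkbp1b; 6.18% of all genes) and for 5 members higher dorsally (Casq2, Asph, Hrc, Slc8a1 and Fgf13; 7.82% of all genes).

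The male values had the same order as the female ones for several members called in females. Fgf13 was at 36.8, 46.4, 21.5 and 20.5 normalized CPM in the male ventral and at 68.0, 62.0 and 53.8 in the male dorsal libraries (−1.02 ± 0.28, adjusted p = 0.285). Casq2 was at 693, 986, 737 and 315 normalized CPM ventrally and at 1344, 1083 and 1091 dorsally (−0.89 ± 0.33, adjusted p = 0.309). Asph was at 155, 216, 203 and 144 normalized CPM ventrally and at 283, 265 and 233 dorsally (−0.55 ± 0.17, adjusted p = 0.286). For these 3 members every dorsal library was above every ventral library in both sexes taken one at a time. Stim1 was at 18.2, 17.6, 33.9 and 33.0 normalized CPM ventrally and at 10.6, 20.7 and 11.2 dorsally (0.81 ± 0.33, adjusted p = 0.32). Kcnd3 had 44, 15, 113 and 106 reads ventrally (2.28, 0.621, 4.53 and 4.53 normalized CPM) and 19, 0 and 0 reads dorsally (1.3 normalized CPM and 2 libraries without a read). These Stim1 and Kcnd3 groups overlapped in males. Slc8a1, which was not called in females, was at 312, 266, 219 and 134 normalized CPM ventrally and at 411, 370 and 382 dorsally in males (−0.80 ± 0.25, adjusted p = 0.285).

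**Figure D3:**
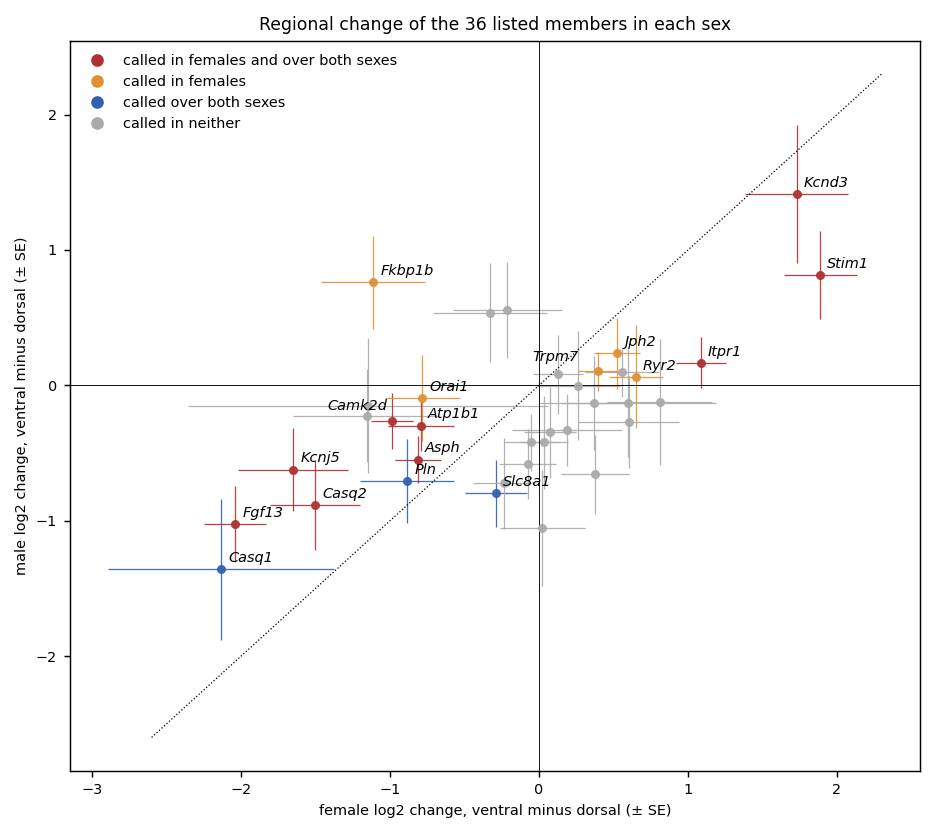
Male against female regional change (log2 of ventral over dorsal, ± SE) of the 36 listed members, with a dotted line of equal change and colours for the members called. The members called dorsally in females, Fkbp1b aside, also lie below 0 in males. All 14 members called in females had a smaller change in males, which picking them by the female change favours.

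Of the 14 members called in females, 13 had the same sign in males and 14 had the smaller change there. The 14 were picked by their female change, which favours a smaller male change. The part of this selection in the smaller male changes was not tested. The same count over all genes called in females was not made. Over all 36 members the sign was shared by 23, and over the 14062 genes tested in both it was shared by 9652. The 2 regional changes had a Pearson's r of 0.60 (Spearman's rho 0.54) over the members, against 0.45 (rho 0.48) over those 14062 genes. These are correlations across genes, which are not independent replicates, and the median changes of the 10 muscle markers (−0.35 in females, −0.59 in males) and the 10 epicardial markers (2.27 and 0.60) also shared their direction, with 0 of either list called in males. The difference between the sexes was tested directly in 1 model. 1 member was called more ventral in males (2.12% of all 15772 genes) and 0 more ventral in females (0.615% of all genes) by limma, with 3 members (8.33%) in each direction at an unadjusted p under 0.05, where 7.99% of all genes were more ventral in males and 7.41% in females, and edgeR called 0 in each direction. The called member was Fkbp1b. It was at 3.25, 2.10, 2.05 and 2.15 normalized CPM in the male ventral libraries (63, 52, 51 and 50 reads) and at 0.433, 1.74 and 0.972 in the male dorsal libraries (6, 42 and 20 reads), so that its male groups did not overlap and ran against the female ones. The male change was 0.76 ± 0.34 (adjusted p = 0.358) and the difference of the changes was 1.87 ± 0.47 (adjusted p = 0.0465). This call was lost with the replicate block (adjusted p = 0.0561) and without any one of 11 of the 13 libraries (adjusted p 0.0665 to 0.13). It held without female ventral replicate 3 or male dorsal replicate 5. With the block, Fgf13 (1.18, adjusted p = 0.0354) and Camk2d (0.85, adjusted p = 0.0242) were called instead, both with the smaller dorsal excess in males, so that the count became 2. The difference for Itpr1 was −0.92 ± 0.25 (adjusted p = 0.0694).

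Over both sexes in one fit with sex as a term, 3 members (8.33%) were higher ventrally, where 9.8% of all 15772 genes were called, and 9 members (25%) were higher dorsally, where 9.06% of all genes were. This fit shares its libraries with the fits of each sex. The ventrally higher members were Kcnd3 (1.56 ± 0.31, adjusted p = 0.00782), Stim1 (1.31 ± 0.25, adjusted p = 0.00745) and Itpr1 (0.59 ± 0.17, adjusted p = 0.0269). The dorsally higher members were Fgf13 (−1.50 ± 0.23, adjusted p = 0.0051), Asph (−0.67 ± 0.12, adjusted p = 0.00685), Casq2 (−1.17 ± 0.26, adjusted p = 0.00988), Kcnj5 (−1.10 ± 0.29, adjusted p = 0.0196), Camk2d (−0.60 ± 0.16, adjusted p = 0.0201), Casq1 (−1.72 ± 0.52, adjusted p = 0.0324), Pln (−0.79 ± 0.24, adjusted p = 0.0325), Atp1b1 (−0.53 ± 0.16, adjusted p = 0.0344) and Slc8a1 (−0.56 ± 0.19, adjusted p = 0.0477). The dorsal side thus held 4 of the 12 members of the sarcoplasmic reticulum, of which 1 was on the ventral side. The 7 ventral and 6 dorsal libraries did not overlap for 2 members, Fgf13 and Asph, both higher dorsally (2.17% of all genes), and for 0 members higher ventrally (1.22% of all genes).

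Casq2, Kcnd3, Fgf13 and Stim1 stayed called under all alternatives of this fit that tested them. Kcnd3 was tested in 25 alternatives, against 26 for the others. Among the dorsal libraries only male dorsal replicate 4 reached 1 normalized CPM of Kcnd3 (1.3). It thus passed the filter of 3 libraries here too only because it was high ventrally. After centring on the muscle markers, which moved the median change of all genes to 0.41, 5 members were ventrally and 3 dorsally higher (Casq2, Casq1 and Fgf13 dorsally), and the calls over all genes became 2087 ventrally against 40 dorsally in place of 1545 and 1429. Casq1 was lost without female dorsal replicates 1 or 2, female ventral replicates 2 or 3, male dorsal replicate 5 or male ventral replicate 7 (adjusted p 0.0502 to 0.0793). Pln was lost without female dorsal replicates 2 or 3, female ventral replicates 2 or 3, male dorsal replicate 4 or male ventral replicates 6 or 7 (adjusted p 0.0552 to 0.0811). Slc8a1 was lost in 9 of 13 such fits, the exceptions being female dorsal replicate 3, female ventral replicate 1 and male ventral replicates 4 and 5 (adjusted p 0.0549 to 0.0999). Atp1b1 was lost in 8 of 13, the exceptions being female dorsal replicate 3, male dorsal replicates 4 and 6 and male ventral replicates 5 and 6 (adjusted p 0.051 to 0.0819). Itpr1 was lost without female dorsal replicates 2 or 3, any female ventral library or male ventral replicate 6 (adjusted p 0.0503 to 0.0695), and Camk2d without replicate 2 of either female group (adjusted p 0.0506 and 0.0524). Under the replicate block, the ventral count rose to 5, with Ryr2 (0.48, adjusted p = 0.0384) and Jph2 (0.44, adjusted p = 0.041) added, while Pln (adjusted p = 0.0611) and Atp1b1 (adjusted p = 0.0585) were lost from the dorsal side. This block also took male ventral replicate 7 out of the regional change.

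The balance between partner genes was also compared within libraries, as ratios of levels per kilobase of the longest protein-coding transcripts. The size of a ratio depends on these lengths, which scale it equally in all libraries. The ratio of Casq2 to Ryr2 was 118, 112 and 79.9 in the female dorsal and 26.6, 23.5 and 19 in the female ventral libraries. In males it was 82.9, 114 and 144 dorsally and 31.8, 84.6, 83.3 and 48.3 ventrally, so the male groups overlapped. The ratio of Asph to Ryr2 was 7.23, 7.02 and 7.12 in the female dorsal and 2.26, 2.75 and 2.73 in the female ventral libraries, a narrow spread within each group. In males it was 6.67, 10.6 and 11.8 dorsally and 2.71, 7.09, 8.75 and 8.47 ventrally. The ratio of Pln to Atp2a2 was 2.06, 4.58 and 3.77 in the female dorsal and 2.24, 1.51 and 1.42 in the female ventral libraries, with overlap. The ratio of Stim1 to Orai1 was 0.428, 0.261 and 0.319 in the female dorsal and 2.32, 2.75 and 2.28 in the female ventral libraries. In males it was 1.78, 2.16 and 0.988 dorsally and 1.65, 2.43, 4.60 and 4.73 ventrally. These ratios were chosen after the values were seen and are given without a test.

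**Figure D4:**
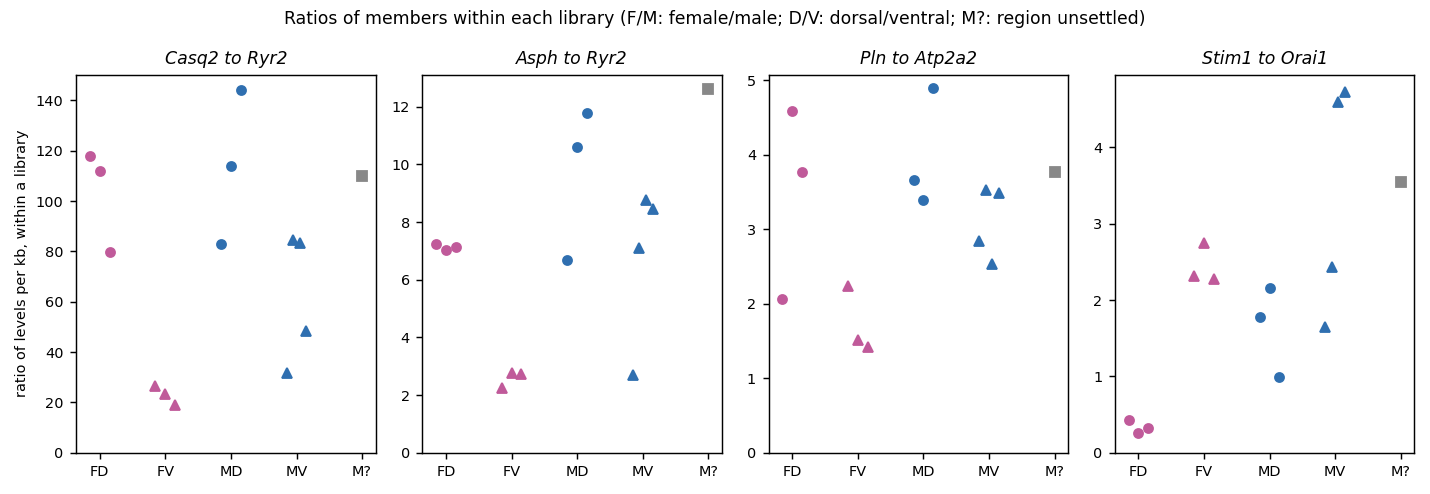
Ratios of levels per kilobase within each library (vertical axes, linear from 0) for Casq2 to Ryr2, Asph to Ryr2, Pln to Atp2a2 and Stim1 to Orai1, with one point per library and the 5 groups on the horizontal axis. The female dorsal and ventral points lie apart for all ratios but that of Pln to Atp2a2, and the male points overlap in all 4.

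Ryr2, the denominator of the first ratios, has a long transcript (16814 bases, the longest protein-coding form, as for the other members). The 6 members called higher ventrally in females had transcripts of 4211 to 16814 bases with a median of 7138, and the 8 called higher dorsally had transcripts of 976 to 6694 bases with a median of 2568. Over the 36 members the female change and the log2 transcript length had a Spearman's rho of 0.51 (Pearson's r 0.43), and over 14398 genes with a length the rho was 0.11 (r 0.08). In males the members' rho was 0.24 (r 0.13). These are descriptions across genes that share the libraries. Ttn, the very long muscle gene, was the 1 ventricular muscle marker called higher ventrally in females, as stated above. With trends on GC content and length removed, 3 members were called higher ventrally in females (Stim1, Kcnd3 and Itpr1) and 8 higher dorsally.

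**Figure D5:**
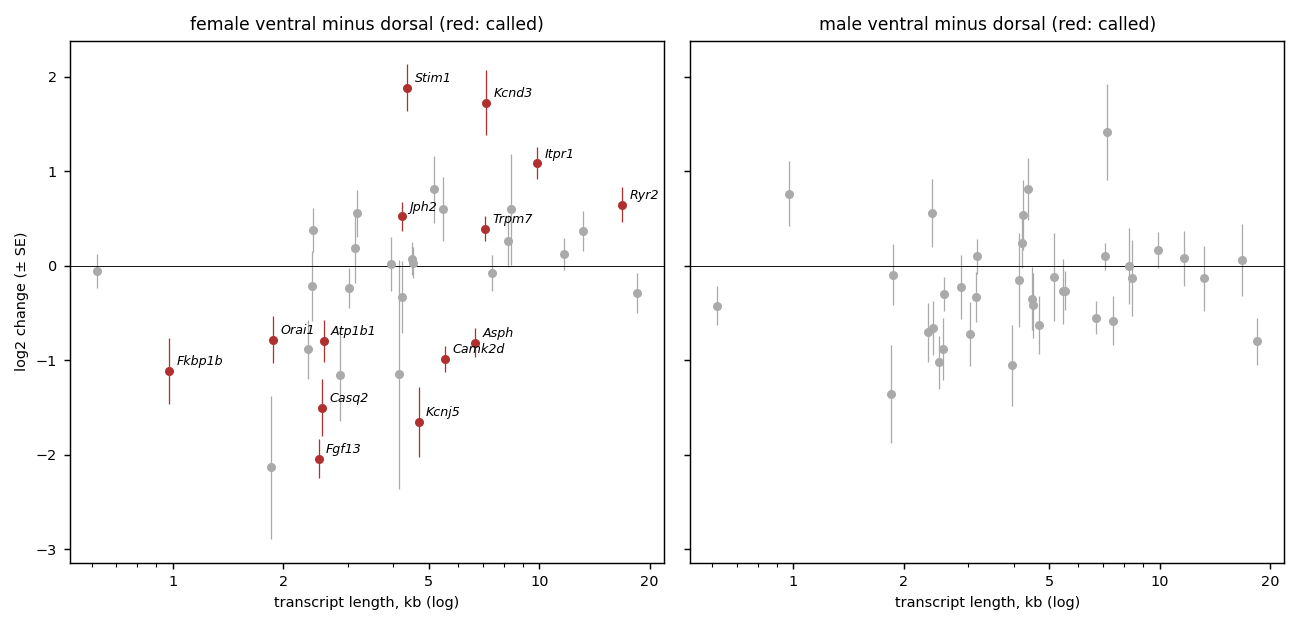
Regional change (log2 of ventral over dorsal, ± SE, vertical axis) of the 36 members against transcript length in kb (horizontal, log axis), in females and in males, with the called members in red. In females the ventrally higher members have transcripts of 4211 bases or more, whereas in males no member was called.

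Between the sexes, adjusted for region, 1 member (2.78%) was higher in males, where 4.4% of all 15772 genes were called, and 2 members (5.56%) were higher in females, where 6.54% of all genes were. Cacnb2, the beta subunit of the L-type channel, was at 5.39 to 8.74 normalized CPM in the 6 female libraries. It was at 36.9, 24.5 and 45.4 in the male dorsal and at 37.2, 17.7, 12.2 and 8.10 in the male ventral libraries. One male library, ventral replicate 7, thus lay within the female range, and the library of unsettled region was at 10.7. The change was 1.58 ± 0.31 (adjusted p = 0.0041), and it was called under all alternatives. Orai1 was lower in each of the 7 male libraries (2.57 to 4.86 normalized CPM) than in each of the 6 female ones (5.46 to 11.9), with a change of −0.99 ± 0.21 (adjusted p = 0.00706). It was lost after centring on the muscle markers (adjusted p = 0.156). Cacna2d1, the alpha2-delta subunit of the L-type channel, was at 35.6 to 56.8 normalized CPM in females and 16.3 to 41.7 in males (−0.63 ± 0.18, adjusted p = 0.035). It was lost without female dorsal replicate 1, any female ventral library, male dorsal replicates 4 or 6 or male ventral replicates 6 or 7 (adjusted p 0.0529 to 0.0885). Epicardial markers also differed between these libraries, with 6 of 10 called higher in males, and 0 of the 10 ventricular muscle markers were called.

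The library of unsettled region had Asph at 274, Slc8a1 at 441 and Casq2 at 910 normalized CPM. Asph and Slc8a1 were above the 4 male ventral libraries, and Casq2 was inside their range of 315 to 986. Stim1 was at 16.05 normalized CPM, within the male dorsal range of 10.6 to 20.7, and Fgf13 at 41.4, within the male ventral range of 20.5 to 46.4. Its region was not inferred from these values.

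Of 64 other genes of calcium handling and ion channels, 55 were listed. In females 54 were tested, of which 9 were ventrally and 8 dorsally higher, where 14.5% and 13.3% of all genes were called. The median change of these 54 was −0.03. The ventrally higher genes included the inositol trisphosphate receptor Itpr3 (1.67 ± 0.33, adjusted p = 0.00564) and the chaperone Calr (0.69 ± 0.19, adjusted p = 0.0259). The sodium channel gene Scn3a was another (2.18 ± 0.64, adjusted p = 0.0313). It was at 13.3, 27.7 and 2.96 normalized CPM ventrally and at 3.30, 0.953 and 1.07 dorsally, and these groups overlapped. Also called ventrally were the channel subunits Cacnb3 and Scn3b, the plasma membrane calcium pumps Atp2b1 and Atp2b4, and Trpm4. The dorsally higher genes included the sodium pump subunit Atp1b2 (−1.56 ± 0.27, adjusted p = 0.00349), the store genes Srl (−0.88 ± 0.18, adjusted p = 0.00786) and Tmem38a (−0.74 ± 0.19, adjusted p = 0.0168), the second store sensor Stim2 (−1.19 ± 0.23, adjusted p = 0.00579), Letm1 and Calm3. Stim2 was thus on the dorsal side and Stim1 on the ventral side. Over both sexes 5 of 55 were called higher ventrally (Cacnb3, Itpr3, Scn2b, Orai2 and Atp2b4) and 5 higher dorsally (among them Kcnj3, Atp1b2, Srl and Tmem38a). Of all genes, 9.8% were called ventrally and 9.06% dorsally in that fit. In males 0 of 52 were called, with 5 higher ventrally and 4 higher dorsally at an unadjusted p under 0.05. Of all genes, 6.84% and 7.12% were so. Kcnj3, whose product joins that of Kcnj5 in 1 channel, was at 25.1 normalized CPM in female dorsal replicate 1 and at 0.435 to 6.37 in the other 12 libraries of settled region. In males 2 were called more ventral than in females (2.12% of all genes), among them Stim2. In males 5 were called lower than in females (6.54% of all genes), among them Stim2, Kcnj12 and Akap6.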

How the data were processed

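RNA was sequenced as poly(A) libraries with single reads in 14 libraries, 13 of which had a settled region. The authors trimmed the reads with Cutadapt, discarded those under 30 bases, counted them on the GRCm38 transcriptome (Ensembl release 91) with RSEM (version 1.3.1 in the submitters' processing notes) and normalized them with limma, keeping genes of at least 1 CPM in at least 3 samples. Use of strand in the counting is not given in the sources used here. The deposited values are a signal, normalized CPM, with (reads + 0.5) as the numerator. Whole reads were recovered for 100% of values within 0.02 reads, 13918995 to 25221314 per library (median 20416778). Floors of 3 reads cover counting error only.

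Values were tested as log2(normalized CPM + 1) with limma 3.58.1 in R 4.3.3 (lmFit, eBayes with trend) on genes that reached 1 in 3 or more of the libraries compared, with Benjamini-Hochberg adjustment over all genes. All 36 listed members passed this filter in every comparison. The comparisons were ventral with dorsal in each sex and over both sexes with sex as a term, the difference of the regional changes, and males with females. Alternatives were another pseudocount (0.1), other filters and normalizations, edgeR 4.0.16 on the recovered reads, removal of trends on GC content and length, centring on muscle markers, leaving out each library, and the replicate number as a block. Deviations from the group means correlated between the ventral and dorsal libraries of one number by 0.187, 0.169 and 0.27 in females and by 0.427, 0.175 and 0.351 in males. The numbers were used as pairs in the replicate block alone, and the labels do not say what a number marks. The main fits, which gave the calls, did not pair the libraries. Male ventral replicate 7 had no settled dorsal library of its number, so the block took it out of every regional change. Gene identifiers were matched to GENCODE M21 (15888, 99.96%). The tests were tried on simulated data. All members are named, and other pathway genes were named when called, except that some are not reported here. The members and all lists were chosen with earlier results of these data known.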

Additional observations from a re-analysis of the deposited data

Results flagged for a closer look

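In the group of 4 male ventral libraries, 4 members had a library far from the others by Dixon's criterion, which flags about 1 in 20 groups by chance. Fkbp1b was at 3.25 normalized CPM in replicate 4, against 2.05 to 2.15 in the others, and Orai1 at 4.73 in replicate 4, against 2.999 to 3.17. Hrc was at 14.9 normalized CPM in replicate 7, against 31.9 to 36.3, and Kcnj5 at 16.4 in replicate 7, against 32.0 to 34.1. Replicate 7 also had the lowest muscle marker sum, and the part of this in Hrc and Kcnj5 was not tested. The regional change of Fkbp1b differed between the sexes by 1.87 (male minus female) in the test of the difference itself, with sex and numbered series not separable.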

How the results depend on the processing

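Of 1161 alternative values for 55 single-member results, 987 kept direction and side of the threshold, 141 lost the call, 15 gained one and 18 turned direction. The 55 include the male changes of the 17 members called in females or over both sexes. These were not called in the main fit and could lose no call, which raises the number kept. Of 230 alternative counts, 181 stayed within 1.5 times. Male counts were 0 in each alternative run.

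With GC content and length trends removed, Ryr2 turned to −0.028 in females (−0.028 also with the replicate block), −0.13 in males and −0.068 over both sexes, and Jph2 to −0.054 in males. Centring on muscle markers, which moved the median change of all genes in males to 0.57, turned Atp1b1 (0.24), Camk2d (0.27) and Orai1 (0.45) in males and Fkbp1b (0.26) over both sexes. In males, Ryr2 turned to −0.0077 without dorsal replicate 5, −0.17 without dorsal replicate 6, −0.26 without ventral replicate 4 and −0.018 with the unsettled library as ventral, and leaving out 1 library gave −0.26 to 0.37. In males Orai1 turned to 0.059 without male dorsal replicate 6 and 0.078 with the unsettled library as dorsal, where Trpm7 turned to −0.030, and leaving out 1 library gave −0.30 to 0.059 for Orai1. Over both sexes Fkbp1b turned to 0.04 without female dorsal replicate 1 and 0.11 without female ventral replicate 2, in a range of −0.34 to 0.11. The causes were not tested.

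In females the ventral count was 3 without the eBayes trend and 3 with GC content and length trends removed, and the dorsal count 5 after centring. Leaving out 1 library gave 2 to 6 ventrally and 5 to 8 dorsally. Over both sexes the dorsal count was 5 without the trend and 3 after centring, the ventral count was 5 after centring and 5 with the replicate block, and leaving out 1 library gave 2 to 3 ventrally and 4 to 9 dorsally. For the difference between sexes, the count more ventral in males was 0 with a pseudocount of 0.1, a mean of at least 10, edgeR or centring, 2 with the replicate block alone or with trends removed, and 0 to 1 without 1 library. The count more ventral in females was 1 with a mean of at least 10 or the unsettled library as dorsal, and 0 to 1 without 1 library. Between the sexes, the count higher in females was 1 without the trend or after centring, 5 and 4 with the unsettled library as dorsal and ventral, and 1 to 6 without 1 library, while the count higher in males was 1 throughout these. The replicate block changed no other call of a named member than those given in the report. Low read numbers limit Fkbp1b and Kcnd3.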
